A study of Mus musculus with 10 samples.

Results

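Cutting at 6 sites in the transcripts of 5 mouse genes of endoplasmic reticulum (ER) stress and ER-associated degradation, Hspa5, Sel1l, Chac1, Pdia6 and Nploc4, was described in cells with and without Mettl3. The deposited table lists 1626 ACA sites, and a site was taken where its 11-base sequence lay in a transcript of a member gene on the same chromosome and strand, within 100 nt of the deposited transcript position. All 5 genes had a site, and Hspa5 had 2. The genes were chosen by the KO minus WT differences of these same columns and by their function, so those differences are given as a description and carry no test. The labels name 10 polyA RNA libraries in 4 groups. These are Mettl3 knockout (KO; genotype label Metll3-/-) embryoid bodies (EB) with 2 libraries, wild-type (WT) EB with 2, KO embryonic stem cells (ESC) with 3 and WT ESC with 3. All cells were first expanded on inactivated embryonic fibroblast feeders with serum and LIF, then passaged on gelatin without serum in LIF and the inhibitors CHIR99021 and PD0325901. EB were aggregates grown from such cells for 9 days in suspension, in serum medium without LIF and the inhibitors. The sources used here do not say how the knockout was made or whether each genotype is 1 clone. The table holds no expression values, so neither the loss of Mettl3 nor the cell types could be checked against marker genes.

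Each site has at most 1 cleavage efficiency for each of the 4 groups, on a scale from 0, uncut, to 1, fully cut. These values come with no replicate spread and no read depth, and so with no n. As background, METTL3 is the methyltransferase that places N6-methyladenosine (m6A) in messenger RNA, mostly at an A followed by C in the consensus DRACH. The bacterial ribonuclease MazF cuts before ACA and is blocked by m6A at the first A, so that efficiency in WT relative to KO has been used as a readout of m6A in such assays. No label used here names the nuclease. The ER folds and modifies secreted and membrane proteins. When unfolded proteins build up in it, the unfolded protein response raises chaperones and lowers protein synthesis, and ER-associated degradation pulls misfolded proteins back into the cytosol for the proteasome. Among the members, Hspa5 encodes the chaperone BiP and Pdia6 a protein disulfide isomerase. Sel1l encodes the adaptor of the ubiquitin ligase HRD1, and Nploc4 a cofactor of the segregase p97 that extracts ubiquitylated proteins. Chac1 encodes an enzyme that breaks down glutathione and is a target gene of the stress transcription factor ATF4.

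The 6 sites are shown as 29 bases of the matched GENCODE M21 transcript, centred on the A of ACA, with the 5 bases that hold the site in capitals. They are printed because the values below belong to these letters.
Hspa5 CDS: ccaccaggatgcGGACAttgaagacttta
Hspa5 5′ UTR: caacactgacctGGACActtgggcttctg
Pdia6 CDS: gggggtggctgtGGACAgaagctggagcc
Sel1l 3′ UTR: actaaaatactcAGACAatggaggatggg
Nploc4 3′ UTR: ctgccacgctgcAGACAgtggcagttggt
Chac1 3′ UTR: agtggtactggtGGACAtcagtatgcagt
In 4 of them the site is GGACA and in 2, Sel1l and Nploc4, it is AGACA, against 1016 and 610 in the whole table. Each 29-base window occurred in transcripts of 1 gene in the annotation. The share of G and C in the window was highest in Pdia6, at 69.0%, and lowest in Sel1l, at 41.4%, with a median of 55.2% over the 1423 sites that could be given a gene.

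The Hspa5 sites lay on chromosome 2 of mm9, plus strand, with the A at position 34631503 for the CDS site and 34627640 for the 5′ UTR site. The CDS site was in the last of 8 exons, 130 nt before the end of the CDS and 433 nt from the nearest exon junction. The 5′ UTR site was base 26 of the matched transcript, in exon 1. The Pdia6 site, at position 17287727 on the plus strand of chromosome 12, was in the CDS, in exon 11 of 13, an exon of 159 nt, and 11 nt from a junction. The 3′ UTR sites of Sel1l (chromosome 12, position 93047265, minus strand), Nploc4 (chromosome 11, position 120243053, minus strand) and Chac1 (chromosome 2, position 119179369, plus strand) were in the last exon. They lay 1019, 730 and 43 nt past the end of the CDS, and 1229, 888 and 445 nt from a junction. Thus 4 of the 6 sites were in a last exon, against 50.6% of the 1423 sites.

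**Figure D1:**
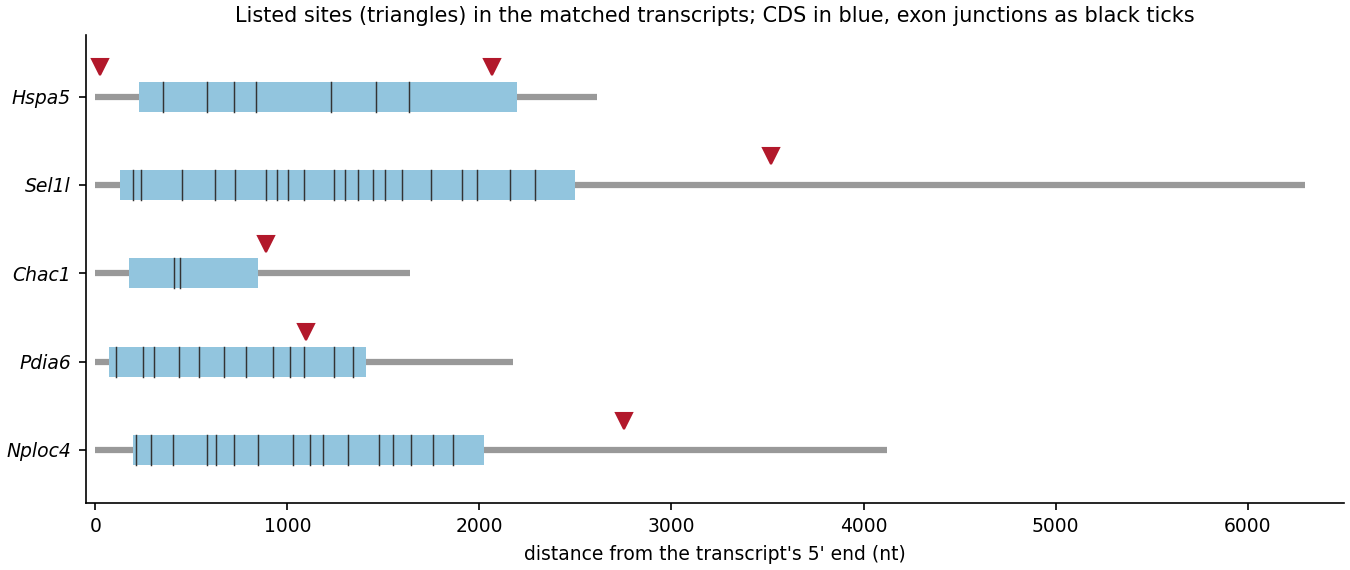
Position of each listed site (red triangle) along its matched transcript, as distance in nt from the 5′ end, with the CDS in blue, the UTRs as a grey line and exon junctions as black ticks. The sites of Sel1l, Chac1 and Nploc4 and the second Hspa5 site lie downstream of the last junction; the Pdia6 site is 11 nt from one.

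The listed sites were few among the possible ones. The matched transcripts of Hspa5, Pdia6, Sel1l, Nploc4 and Chac1 held 10, 8, 13, 15 and 5 occurrences of GGACA or AGACA, of which 2, 1, 1, 1 and 1 were in the table. The sources used here do not say how sites entered the table. The distance to the next ACA matters because a cut there also ends a fragment. It was 12 nt upstream and 137 nt downstream at the Hspa5 5′ UTR site and 29 and 125 nt at the Pdia6 site. At the other 4 sites the nearest ACA was 78 nt or more away on either side, with 133 and 286 nt at Chac1. Over the sites with a gene the medians were 76 nt upstream and 83 nt downstream.

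Of the chaperone and folding genes, Hspa5 had a pair of sites that differed from each other. The Hspa5 CDS site had a cleavage efficiency of 0.901 in KO ESC, against 0.220 in WT ESC. In EB it had 0.893 in KO, against 0.303 in WT. Both KO values were thus high and both WT values low, and WT stood at 24.4% of KO in ESC and at 33.9% in EB. The Hspa5 5′ UTR site of the same transcript had 0.865 in KO ESC, against 0.903 in WT ESC, and 0.893 in KO EB, against 0.882 in WT EB. All 4 of its values were high, with KO minus WT at −0.04 in ESC and 0.01 in EB. The distance between both Hspa5 sites was therefore in the WT columns: in KO ESC they were 0.901 and 0.865, and in KO EB both rounded to 0.893.

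The Pdia6 site was little cut in all 4 columns. It had 0.121 in KO ESC, against 0.239 in WT ESC, a difference of −0.12, and 0.127 in KO EB, against 0.131 in WT EB. The highest value was in WT ESC and the other 3 lay close together. WT stood at 197% of KO in ESC and at 103% in EB. It was the only one of the 6 sites that was below 0.2 in KO, and 10.6% of the sites in KO ESC and 11.3% in KO EB had a lower value.

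The genes of ER-associated degradation had values in 3 of 4 columns each. The Sel1l site was listed at 1 in KO ESC, fully cut, against 0.105 in WT ESC, and at 0.146 in WT EB; it had no KO EB value. Both WT values were low, and WT stood at 10.5% of KO in ESC. The Nploc4 site had 0.459 in KO ESC, against 0.206 in WT ESC, and 0.271 in WT EB, again with no KO EB value. Its WT values were close to those of the Hspa5 CDS site and its KO ESC value was lower than at that site, so that WT stood at 44.9% of KO. Of the sites in KO ESC, 25% had a lower value than Nploc4.

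The Chac1 site had no WT ESC value. In EB it had 0.882 in KO, against 0.0635 in WT, which was 7.20% of KO, and in KO ESC it had 0.809. Both KO columns were high and the WT column near 0.

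**Figure D2:**
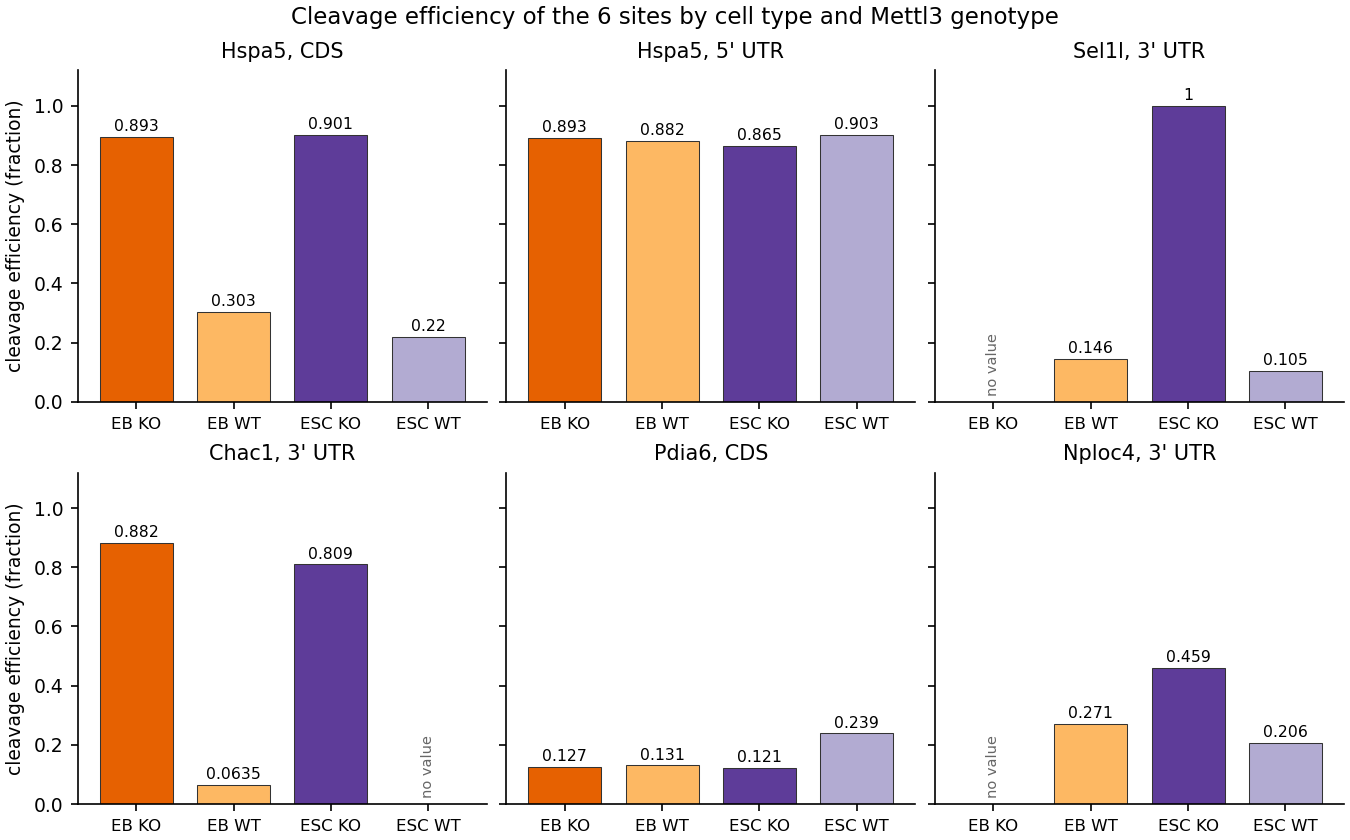
Cleavage efficiency (fraction, vertical axis from 0) of the 6 sites in KO EB, WT EB, KO ESC and WT ESC, 1 bar per deposited column with its value above it; columns without a value are marked. KO bars are far above WT bars at the Hspa5 CDS, Sel1l and Chac1 sites, all 4 bars are high at the Hspa5 5′ UTR site and all 4 are low at the Pdia6 site.

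Setting KO ESC against WT ESC addresses whether a site was cut less in cells that have Mettl3. Of the 5 member sites with both columns filled, 3 were higher in KO by at least 0.10, namely Sel1l (0.90), Hspa5 CDS (0.68) and Nploc4 (0.25), against 55.4% of all 1046 such sites. Pdia6 was lower by that size, against 2.58% of all sites. With column medians subtracted, which shifts every ESC difference by −0.373, Nploc4 turned to −0.12 and Sel1l and Hspa5 CDS stayed above 0.10. The median over the 5 sites was 0.253, beside 0.130 over all sites; it turned to −0.0378 over the 3 sites with all 4 values. Since these differences were known when the genes were chosen, nothing is read from the counts. These are bulk values, so fewer cut molecules in every cell and fewer cells with cut molecules cannot be told apart. In the order of all 1046 sites, Sel1l stood at place 4 from the top, Hspa5 CDS at 68 and Nploc4 at 351, and Pdia6 at place 18 from the bottom.

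In EB, where 4 sites had both values, Chac1 (0.82) and Hspa5 CDS (0.59) were higher in KO by at least 0.10, against 41.9% of all 855 sites. None was lower by that size, against 5.96% of all sites. The other differences were 0.01 at the Hspa5 5′ UTR site and −0.004 at Pdia6. The median was 0.301 over the 4 sites and 0.0638 over all sites. It was 0.0110 over the 3 sites with all 4 values. With column medians subtracted, a shift of −0.266 in EB, it was 0.0342, and 2 sites, Pdia6 (−0.27) and the Hspa5 5′ UTR site (−0.26), were lower by at least 0.10. Chac1 stood at place 8 of 855 from the top and Hspa5 CDS at 73. Because the table has 1 column per group, no test over libraries could be made for any site. As a measure of size, 95% of 845 sites differed by no more than 0.166 between EB and ESC within KO, which holds measurement error and any change with differentiation together. The Pdia6 differences of −0.12 for KO minus WT in ESC and −0.11 for EB minus ESC in WT were within that size. That size is absolute and taken over sites of all levels, while the Pdia6 values were low, so it does not weigh their ratio.

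**Figure D3:**
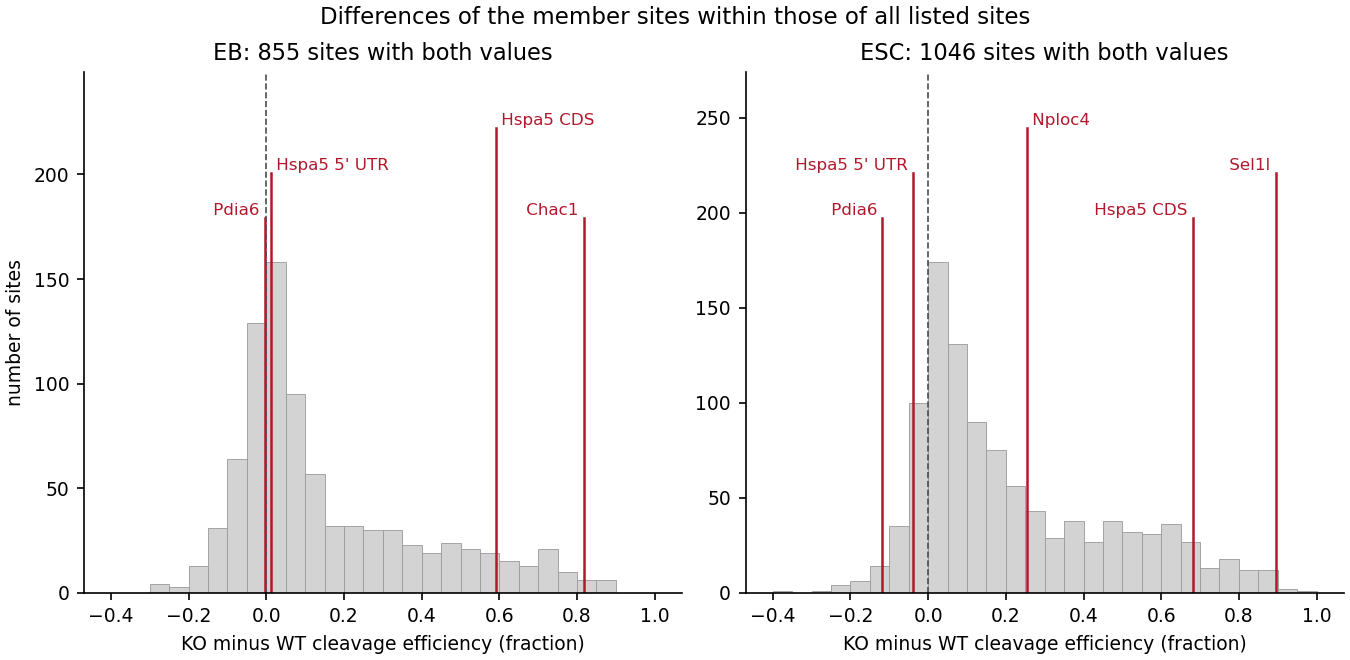
Number of listed sites (vertical axis) by KO minus WT cleavage efficiency (fraction, in bins of 0.05), left panel EB and right panel ESC, with the member sites as red lines. Sel1l at 0.90 in ESC and Chac1 at 0.82 in EB lie at the upper end, the Hspa5 5′ UTR and Pdia6 sites near or below 0.

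Sites were also set beside those of the same 5 bases in the same part of the transcript. Sel1l had the second largest ESC difference of 97 AGACA sites in 3′ UTRs, whose median was 0.146, and Nploc4 stood at place 28 of them. Among 317 GGACA sites in the CDS, with a median of 0.179, Hspa5 CDS stood at place 27 and Pdia6 at place 313. In EB, Chac1 stood at place 3 of 145 GGACA sites in 3′ UTRs, whose median was 0.260. Sites in a last exon had a median ESC difference of 0.236, against 0.0762 for other sites. Within 100 nt of a junction, where the Pdia6 site lies, it was 0.0503, and 32.5% of 292 such sites were higher by at least 0.10. Farther from a junction the median was 0.216, and 67.7% of 598 sites were higher by that size. Pdia6, at −0.12, was below both medians, and a link of its value to the junction was not tested.

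The sources used here do not explain how the deposited classes CellRep_low, CellRep_intermediate, CellRep_high and highest were made. By class, the median ESC difference over all sites was 0.0309 in low, 0.0732 in intermediate, 0.248 in high and 0.405 in highest. Not every member site lay near its class median. The member sites were chosen with their differences known, so where they lie in a class says nothing about the class. Chac1 and the Hspa5 5′ UTR site are both of the low class. Of the 140 low-class sites with both EB values, with a median of −0.0002, Chac1 had the largest difference, 0.82. Sel1l is of the highest class, where it had the second largest ESC difference of 68 sites. Hspa5 CDS and Nploc4 are of the high class, with a median ESC difference of 0.248, close to the 0.25 of Nploc4. Pdia6 is of the intermediate class, with a median of 0.0732.

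EB minus ESC in WT asks whether cutting changed as the cells differentiated. The values differed by 0.08 at Hspa5 CDS, 0.06 at Nploc4, 0.04 at Sel1l, −0.02 at the Hspa5 5′ UTR site and −0.11 at Pdia6. None of these 5 sites was higher in EB by at least 0.10, against 26.4% of all 1071 sites, and Pdia6 was lower by that size, against 5.51%. Their median was 0.0415, and that of all sites 0.0408. It turned to −0.0213 over the 3 sites with all 4 values and to −0.0548 with column medians subtracted, a shift of −0.0963. That shift also turned Hspa5 CDS to −0.01, Nploc4 to −0.03 and Sel1l to −0.05, so the direction at these 3 sites depends on the scaling. The low WT values of Hspa5 CDS, Nploc4 and Sel1l in ESC were thus low in EB as well. In KO, EB minus ESC was 0.07 at Chac1, 0.03 at the Hspa5 5′ UTR site, 0.006 at Pdia6 and −0.008 at Hspa5 CDS. None reached 0.10 upward, against 7.10% of 845 sites, or downward, against 11.1%.

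The KO effect in EB minus that in ESC could be taken for 3 sites. It was −0.09 at Hspa5 CDS, 0.05 at the Hspa5 5′ UTR site and 0.11 at Pdia6. Pdia6 was thus higher by at least 0.10, against 5.53% of 759 sites, and no member lower, against 32.0%. At Pdia6 KO minus WT was −0.12 in ESC and −0.004 in EB, so its KO effect was smaller in EB, not larger. Its 0.11 was also within 0.166, the size that held 95% of sites for EB minus ESC in KO. The Pdia6 value comes from its WT columns, with 0.131 in EB against 0.239 in ESC, while its KO columns had 0.127 in EB, against 0.121 in ESC. Over all 759 sites the median was −0.0446. The comparisons with KO minus WT share their columns, so their values are not independent.

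Sites of other genes of ER folding, stress signalling, degradation and translocation gave a setting for these values. From a list of 93 symbols, 10 genes had 12 sites, and Mbtps2 alone had 3 of them. The Ube4b site and some of the Mbtps2 sites were placed in matched transcripts without an annotated CDS. In ESC, 4 of the 10 sites that could be compared were higher in KO by at least 0.10, against 55.4% of all sites, and none lower, against 2.58%. Their median was 0.0730. In EB 2 of 11 were higher, against 41.9% of all sites, and none lower, against 5.96%, with a median of 0.0339. Both medians were below those of all sites, 0.130 and 0.0638. The list leaves out the member genes, which were chosen by their differences, so these medians do not describe ER genes as a whole. The 4 sites in ESC were in Stt3b, Ssr2, Ufd1 and Ube4b, and the 2 in EB in Stt3b and Ube4b.

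Ufd1 encodes the partner of the Nploc4 product in the p97 cofactor. Its CDS site had 0.904 in KO ESC, against 0.702 in WT ESC, and 0.854 in KO EB, against 0.758 in WT EB. It was thus cut more than the Nploc4 site in every column that both have. Ube4b, a ubiquitin chain elongation factor gene that works with p97, had 0.739 in KO ESC, against 0.618 in WT ESC, and 0.800 in KO EB, against 0.692 in WT EB. Stt3b, a catalytic subunit of oligosaccharyltransferase, had 0.409 in KO ESC, against 0.161 in WT ESC, and 0.404 in KO EB, against 0.179 in WT EB. Like Nploc4, its 3′ UTR site was cut to less than 0.5 in KO. Ssr2, a translocon-associated protein gene, had 0.500 in KO ESC, against 0.284 in WT ESC, and 0.442 in KO EB, against 0.413 in WT EB.

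The site of Pdia4, another protein disulfide isomerase gene, was almost uncut in all columns, with 0.0488 in KO ESC, against 0.00128 in WT ESC, and 0.0402 in KO EB, against 0.00638 in WT EB. It thus shared its low level in KO with Pdia6 and not its direction in ESC. Such a low level was not particular to these genes. A site of Mbtps2 had 0.0889 in KO ESC and 0.143 in KO EB, and another had 0.0652 and 0.1. KO minus WT in ESC was 0.06 at the first of these and −0.008 at the other. The site of Atf4, whose product activates Chac1, was highly cut, with 0.962 in KO ESC, against 0.877 in WT ESC, and 0.986 in KO EB, against 0.929 in WT EB. Derl1, a gene of the machinery that moves misfolded proteins out of the ER, had 0.881 in KO ESC, against 0.916 in WT ESC, and 0.834 in KO EB, against 0.896 in WT EB. None of the sites of Pdia4, Atf4 and Derl1 differed by 0.10 in either stage.

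**Figure D4:**
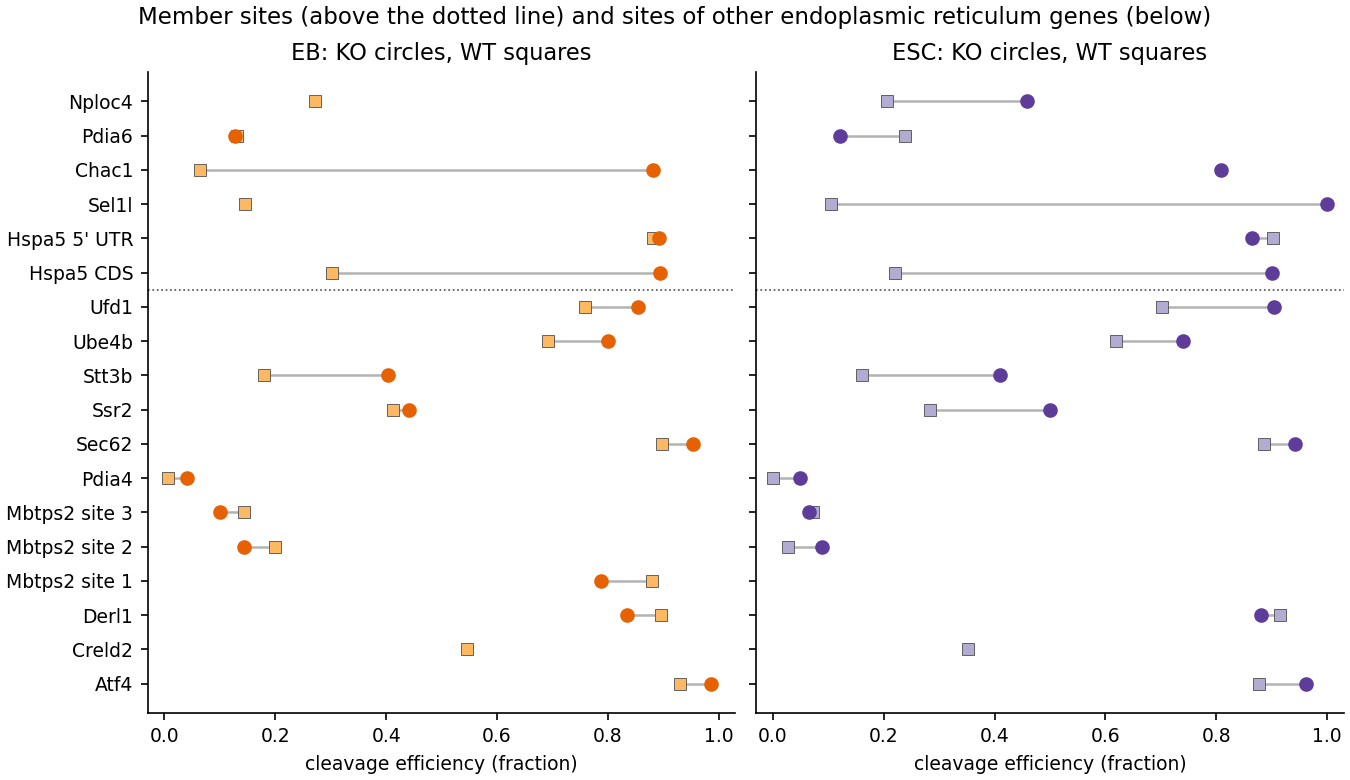
Cleavage efficiency (fraction, horizontal axis) in KO (circles) and WT (squares), left panel EB and right panel ESC, with the 6 member sites above the dotted line and the 12 sites of other ER genes below it; a grey line joins both genotypes. The widest gaps are at Sel1l, 0.90 in ESC, and Chac1, 0.82 in EB, and the widest below the dotted line at Stt3b, 0.25 in ESC.

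For the 3 sites with all 4 values, the most similar sites of other genes were taken by Euclidean distance over the 4 columns, among 655 or 656 sites. Nearest to Hspa5 CDS was a 3′ UTR site of 2410002F23Rik at a distance of 0.0355, followed by sites of Rpp14 at 0.0504 and Topors at 0.0604. Nearest to the Hspa5 5′ UTR site were CDS sites of Rrp12 at 0.0278, Mcm3 at 0.0345 and Kri1 at 0.0478. Pdia6 had no neighbour as close: the nearest were sites of Zbed6 at 0.0827, Ccnd1 at 0.108 and Zfp825 at 0.114. All 3 had low values in the KO and WT columns, and the Zbed6 site had 0.119 in KO ESC, against 0.286 in WT ESC.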

How the data were processed

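The values come from 1 table that the authors deposited, whose 4 value columns hold cleavage efficiencies as a fraction, 1 column per group per the file headers (0 columns outside the groups). The submitters' processing notes name STAR 2.5.3a, bedtools 2.26.0 and mm9 without a role. The sources used here do not say how reads were counted, which minimum applied or whether libraries were pooled, so the depth is unknown and no interval is given.

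The table pairs sites with transcript identifiers, not gene names. Each site was matched by its 11 bases, with the cut A at base 6, to GENCODE M21 transcripts on its chromosome and strand, at most 100 nt from the transcript position and 10 Mb from the genome position in the table. A match was kept where 1 gene was nearest and its position shift between builds was also seen at a site of a different gene among the 3 nearest sites before or after it. Of 1626 sites, 1473 matched 1 gene and 1423 in 1232 genes passed; on the wrong strand 54 sites found a match. Coordinates are those deposited, 1-based at the A; 33 named sites had no shift between builds. Where several transcripts matched, the protein-coding one nearest in position gave region and distances.

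The planned tests over libraries could not be run on group columns. Differences of columns were taken on the fraction, with no filter or pseudocount, and counted from 0.10. Alternatives were a logit scale, subtraction of column medians, only sites with all 4 values, sizes of 0.20 and 0.05, 1 value per gene, a mean of 0.05 to 0.95, and exact transcript positions; WT as a percent of KO was added after the data were seen. The counting was tested on simulated data. Every member site is named, as are sites of the list of other ER genes that reached 0.10 in a genotype comparison. The 3 most similar sites per complete member site are named too. Pdia4, Atf4, Derl1 and the Mbtps2 sites set beside Pdia4 were picked from the list of other ER genes with their values known. The members and lists were chosen with earlier results of these data known. A Wfs1 site failed the neighbour rule and was left out. Python 3.11.15, pandas 2.3.3, numpy 2.4.6 and matplotlib 3.10.9 were used.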

Additional observations from a re-analysis of the deposited data

Results flagged for a closer look

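At a pair of sites KO minus WT had opposite signs in both stages; the difference was not tested, and 206 of 759 complete sites (27.1%) do the same. The Hspa5 5′ UTR site differed by 0.01 (0.0110) in EB and −0.04 (−0.0378) in ESC. A site of Mbtps2, which encodes a protease that activates ATF6, differed by −0.06 (−0.0571) in EB and 0.06 (0.0619) in ESC. That Mbtps2 site was placed in a matched transcript without an annotated CDS.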

How the results depend on the processing

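No paired analysis was possible because the table has 1 column per group, and leaving out a replicate was not possible for the same reason. On the logit scale, with values limited to 0.01 to 0.99, and with WT as a percent of KO every member difference kept its direction. For a difference of 2 columns neither alternative can reverse a direction, so this is no check of it. Only the difference of the KO effect could have turned on the logit scale, and it did not at the 3 sites that have it. Subtracting column medians shifts each KO minus WT difference by −0.373 in ESC and −0.266 in EB, which also removes what the genotypes differ by at a typical site, and moved 8 further member values by over 0.166. It left Sel1l (0.52) and Hspa5 CDS (0.31) higher in ESC, turned Nploc4 and with it the member median to −0.12 (−0.120), and put 3 sites lower by at least 0.10. In EB it left a median of 0.0342 and 2 sites lower. For EB minus ESC in WT it left 0 sites higher and 2 lower by 0.10, with a median of −0.0548, and 2 higher for the difference of the KO effect. With only the 3 sites that have all 4 values, 1 was higher by 0.10 or by any size in ESC (median −0.0378), 1 by 0.10 in EB (median 0.0110) and 1 by any size for EB minus ESC in WT (median −0.0213). With a size of 0.20, 0 sites were lower in ESC or for EB minus ESC in WT, and 0 higher for the difference of the KO effect. With a size of 0.05, 2 were higher for EB minus ESC in WT, 1 for EB minus ESC in KO, and 1 was lower for the difference of the KO effect. With 1 value per gene, 1 gene was higher for the difference of the KO effect. Only Sel1l matched at exactly the deposited position, which leaves 1 site higher by 0.10 in ESC (0.895) and 0 lower. For EB minus ESC in WT that leaves 0 higher and 0 lower by 0.10, and 1 higher by any size (0.0415). The remaining alternatives left counts within 1.5 times. These changes follow from fewer sites, the size used or the shift. The depth behind each value is unknown.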
